A study of Mus musculus with 48 samples.

Results

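Ptgs2, Il6 and the chemokine genes Ccl2, Ccl7, Ccl11, Cxcl1, Cxcl12 and Cxcl13 were followed in mouse aortas with defects of the elastic fibre. They are 8 of the 22180 genes that had an array probe set under a symbol of their own, and each had 1 such probe set. They were chosen with their knockout effects and their differences between aortic locations in view. Their values in those contrasts are therefore given as a description with errors and without tests, and support no further statement. All 8 passed the filter on low signal used for the whole table, Il6 through 1 group alone.

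The arrays covered 3 mouse models. Eln encodes elastin, Efemp2 encodes fibulin-4, which is needed to assemble elastic fibres, and Lox encodes lysyl oxidase, which cross-links elastin and collagen. The Eln and Efemp2 mice were C57BL/6 and the Lox mice B6 albino. Knockout (KO) mice were set against wild-type (WT) mice of the same model, and the alleles are not given in the sources used here. Ascending aorta (AA) and descending aorta (DA) were collected before birth at day 17.5 of gestation (E17.5) or 1 day after birth (P1). Each of the 24 groups had 2 arrays, each of them made from 5 ng of RNA of a pool of 8 aortas. The arrays measured the whole vessel wall, so fewer cells of a type and less RNA per cell cannot be told apart. P-values measure only the spread between such pools.

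Ptgs2 encodes cyclooxygenase-2, the inducible enzyme that starts prostaglandin synthesis. Il6 encodes a cytokine that signals through a receptor shared with other members of its family and through STAT3. The remaining members are chemokines, secreted proteins that guide leukocytes by binding receptors on their surface. Ccl2 and Ccl7 attract monocytes through Ccr2, Ccl11 attracts eosinophils, Cxcl1 attracts neutrophils through Cxcr2, Cxcl12 binds Cxcr4 and the scavenger receptor Ackr3, and Cxcl13 attracts B cells. In vessels, smooth muscle cells, fibroblasts and endothelial cells can make several of these mediators in addition to leukocytes. Ccl2, Ccl7 and Ccl11 are neighbours on mouse chromosome 11 in the order of RefSeq genes.

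Values are log2 array signals, and a difference without a stated order is KO less WT. Its standard error (SE) comes from a linear model with 24 group means over 48 arrays. The term pair is used for both genotypes of 1 model at 1 location and stage. In 3 of the 12 pairs the median of all tested genes moved by over 0.1 (0.268 in Eln DA P1, -0.200 in Lox AA P1 and -0.175 in Lox DA P1). Differences of these pairs are given less that median, and location differences whose median moved by over 0.1 were treated alike. Means over pairs or location differences were taken before any median was removed, as the medians of these means moved by less than 0.1. A mean can therefore differ from that of the pair values printed beside it. Medians of single arrays spanned 3.71 to 3.82 in Lox E17.5 and 4.85 to 5.35 in Lox P1, with the other models in between, so levels were compared within a model and stage. Across genes, which are not independent replicates, arrays of 1 group had an r of 0.875 to 0.990. As a reference for background, the 95th percentile of 1394 olfactory and vomeronasal receptor genes was taken on each array. The difference of Eln in Eln KO was -6.12 ± 0.22 and that of Lox in Lox KO -2.66 ± 0.16, but replicate 1 of the Lox KO E17.5 arrays kept more Lox signal than replicate 2 (7.99 against 6.56 in AA, 7.93 against 6.26 in DA). Wild-type replicates 1 and 2 differed in Eln signal as well, at 9.69 against 11.7 in Efemp2 AA E17.5 and 9.205 against 11.655 in Eln DA P1. No probe set carried the symbol Efemp2 alone, so that deletion was not checked. All 8 smooth muscle markers lay above the receptor reference on every array. A raised background marked both Eln WT DA P1 arrays and replicate 2 of Efemp2 WT AA P1 and DA P1.

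In Efemp2 and Lox knockouts, Ptgs2, Ccl2 and Ccl7 were higher than in wild-type aortas in the mean of the 4 pairs. Ptgs2 differed by 1.72 in Efemp2 and 1.55 in Lox (SE 0.23), Ccl2 by 1.66 and 1.25 (SE 0.21), and Ccl7 by 1.09 and 1.24 (SE 0.23). In Eln the same means were 0.44 for Ptgs2, 0.17 for Ccl2 and 0.36 for Ccl7. The member that stood out in the elastin knockout was Cxcl13, at -1.05 ± 0.16, with -0.05 in Efemp2 and -0.07 in Lox. Whether these effects differ between models was not tested, because the members were chosen on them.

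**Figure D1:**
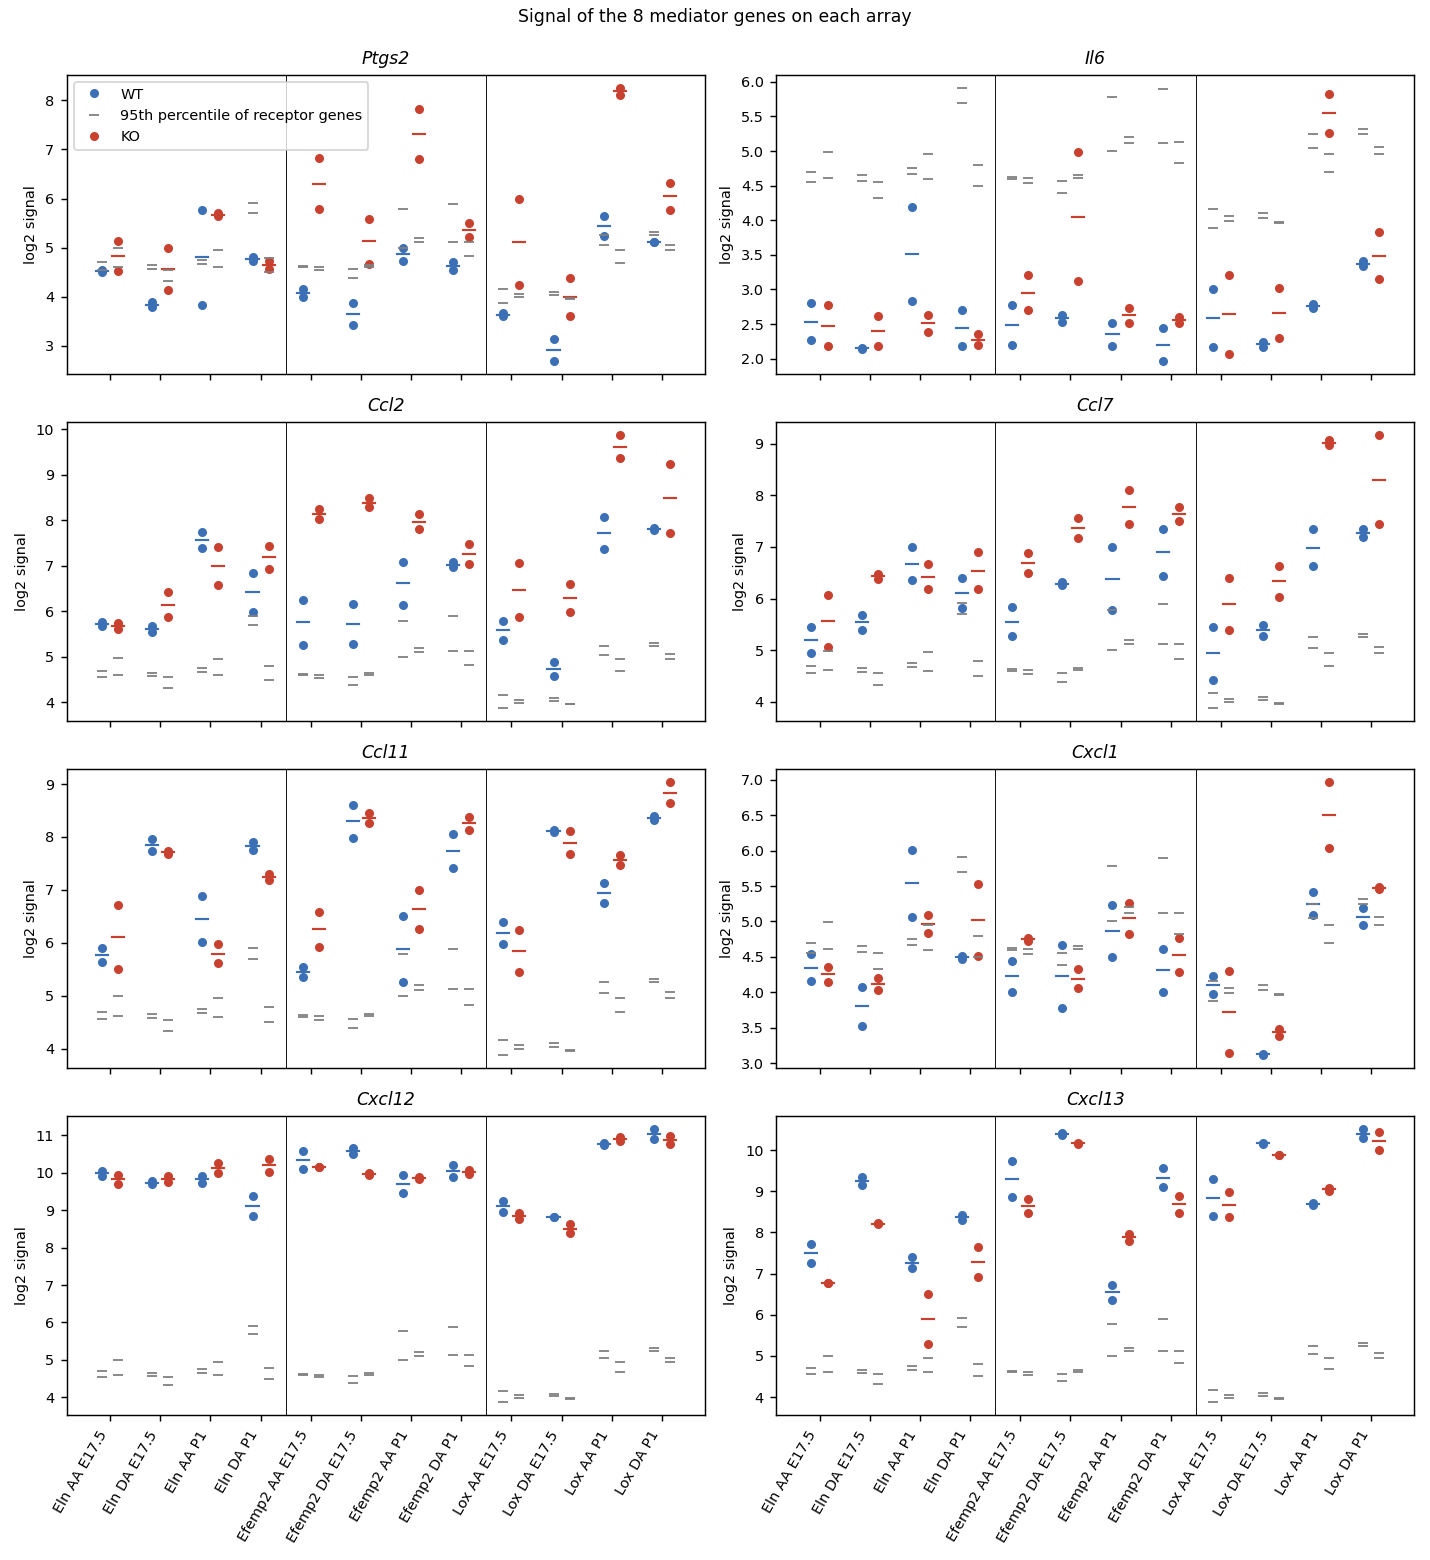
Log2 signal of the 8 genes on each of the 48 arrays, by model, location and stage, with WT arrays in blue, KO arrays in red, short coloured lines at group means and grey dashes at each array's 95th percentile of receptor genes. In Lox AA P1 both KO arrays of Ptgs2 (8.25 and 8.12) sit above both WT arrays (5.23 and 5.63), and in DA of every pair Ccl11 and Cxcl13 sit above their AA arrays of the same genotype.

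Ptgs2 was near or below the receptor reference in most wild-type aortas. It exceeded that reference on 8 of 8 Efemp2 KO arrays against 0 of 8 WT arrays, on 7 of 8 Lox KO against 1 of 8 WT arrays, and on 5 of 8 Eln KO against 1 of 8 WT arrays. In Efemp2 AA its 2 arrays read 4.01 and 4.15 in WT and 6.82 and 5.79 in KO at E17.5, and 4.73 and 4.99 against 6.81 and 7.82 at P1. Efemp2 DA gave 3.88 and 3.44 in WT against 5.59 and 4.66 in KO at E17.5, and 4.72 and 4.54 against 5.21 and 5.51 at P1. No KO array overlapped a WT array in these 4 pairs, and the gap was widest in AA.

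In Lox AA, Ptgs2 read 3.66 and 3.61 in WT and 5.98 and 4.24 in KO at E17.5, and 5.23 and 5.63 against 8.25 and 8.12 at P1. In Lox DA it read 3.13 and 2.70 in WT against 3.61 and 4.37 in KO at E17.5, and 5.12 on both WT arrays against 6.32 and 5.77 at P1. These 4 pairs also did not overlap. Within Lox P1 the order of the means was KO AA, KO DA, WT AA and WT DA. KO AA stood clear of the rest, whereas the lower KO DA array (5.77) and the higher WT AA array (5.63) were close, as were the lower WT AA array (5.23) and WT DA (5.12). The KO less WT difference of Lox AA P1 was 2.95 ± 0.47, where WT replicate 1 lay below the receptor reference and WT replicate 2 above it. In Lox AA E17.5 the difference of 1.48 rested on 1 array and was 0.60 without KO replicate 1, the array with more residual Lox than its replicate.

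Eln gave a mixed picture for Ptgs2. At E17.5 its arrays were 4.50 and 4.54 in WT AA against 5.14 and 4.52 in KO AA, which overlapped, and 3.79 and 3.89 in WT DA against 4.99 and 4.13 in KO DA, which did not. At P1 they were 3.83 and 5.77 in WT AA against 5.64 and 5.70 in KO AA, and 4.73 and 4.82 in WT DA against 4.57 and 4.72 in KO DA. The WT AA P1 arrays were the least alike of any Ptgs2 group, 1.94 apart, and the difference of 0.87 there became -0.10 without WT replicate 1. Gene by gene, Ptgs2 was higher without overlap in all 4 pairs in Efemp2 and in Lox, which also held for 0.854% and 0.587% of the 15337 tested genes.

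Il6 was at background in nearly every group. It exceeded the receptor reference on 3 of 48 arrays, which were both Lox KO AA P1 arrays and replicate 1 of Efemp2 KO DA E17.5. The Lox AA P1 arrays read 2.79 and 2.73 in WT and 5.82 and 5.27 in KO, a difference of 2.98 ± 0.43 in which the WT side had no level above the reference. In Lox DA P1 the arrays were 3.33 and 3.41 in WT and 3.83 and 3.15 in KO, which overlapped and stayed below the reference. Above the reference, Il6 was seen at this age in ascending and not in descending aorta of the Lox knockout.

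Efemp2 KO DA E17.5 was the other group with Il6 signal, at 4.98 and 3.12 against 2.54 and 2.63 in WT. Its difference of 1.47 ± 0.43 was 0.54 without KO replicate 1. In Eln AA P1 the order was opposite, with 4.19 and 2.83 in WT and 2.64 and 2.39 in KO, all below the reference. The difference of -0.99 was -0.31 without WT replicate 1. The remaining 32 arrays, outside Lox P1, Efemp2 DA E17.5 and Eln AA P1, lay between 1.97 and 3.21. Mean differences of Il6 were -0.24 in Eln, 0.64 in Efemp2 and 0.85 in Lox (SE 0.22), and a single pair had the largest part of it in each of the latter models.

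The letters upstream of 4 members are shown. Ptgs2, Il6 and Cxcl1 are the members with an entry whose highest group within Lox P1 was KO AA, and Cxcl12 was abundant on all arrays. The 250 bases before the annotated start are from RefSeq on GRCm38.p6, all on the plus strand, at chr1:150099781-150100030 for Ptgs2, chr5:30012864-30013113 for Il6, chr5:90890995-90891244 for Cxcl1 and chr6:117168285-117168534 for Cxcl12. Capitals mark matches on either strand to an NF-kB type motif (GGG, any 2 bases, then TTTCC), to ACGTCA (a cAMP response type motif), to TATAAA or CCGCCC (a GC box).
Ptgs2: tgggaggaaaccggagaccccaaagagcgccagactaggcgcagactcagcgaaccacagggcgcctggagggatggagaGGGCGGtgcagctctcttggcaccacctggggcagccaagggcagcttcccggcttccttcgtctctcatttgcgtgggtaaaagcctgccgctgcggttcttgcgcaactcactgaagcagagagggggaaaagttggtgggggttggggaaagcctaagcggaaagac
Il6: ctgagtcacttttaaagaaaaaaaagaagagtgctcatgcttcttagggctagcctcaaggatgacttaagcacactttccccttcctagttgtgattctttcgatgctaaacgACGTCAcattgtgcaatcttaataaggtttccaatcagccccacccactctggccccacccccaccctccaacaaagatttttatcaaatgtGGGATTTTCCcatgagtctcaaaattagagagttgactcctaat
Cxcl1: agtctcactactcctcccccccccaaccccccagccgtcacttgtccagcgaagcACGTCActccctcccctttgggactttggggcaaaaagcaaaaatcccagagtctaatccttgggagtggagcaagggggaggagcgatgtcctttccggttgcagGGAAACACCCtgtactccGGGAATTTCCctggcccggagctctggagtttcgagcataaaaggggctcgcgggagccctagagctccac
Cxcl12: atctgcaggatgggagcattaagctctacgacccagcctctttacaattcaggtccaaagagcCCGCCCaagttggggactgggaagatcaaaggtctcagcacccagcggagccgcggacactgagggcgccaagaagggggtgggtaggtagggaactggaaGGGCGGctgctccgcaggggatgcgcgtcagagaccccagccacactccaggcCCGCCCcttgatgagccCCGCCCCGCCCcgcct
The Ptgs2 window held 1 match to CCGCCC and none to the other motifs. The Il6 window held 1 match to the NF-kB type motif, 44 to 35 bases before the start, and 1 to ACGTCA. Cxcl1 held 2 matches to it, 89 to 80 bases before the start on the minus strand and 71 to 62 on the plus strand, and 1 to ACGTCA. In Cxcl12 there were 5 matches to CCGCCC, of which the pair nearest the start shared 1 letter, and none to the other motifs. Among all 32851 windows of this length, 1.41% held the NF-kB type motif, 6.47% ACGTCA, 12.37% TATAAA and 32.74% CCGCCC. The window of Cxcl13 held 1 match, to TATAAA. The table gave no entry for Ccl2, Ccl7 and Ccl11. A match describes letters only, and the motifs were picked after the windows had been seen.

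Ccl2, the monocyte attractant, was above the receptor reference on all 48 arrays. In Efemp2 at E17.5 it read 5.27 and 6.26 in WT AA against 8.04 and 8.25 in KO AA, and 5.28 and 6.16 in WT DA against 8.29 and 8.49 in KO DA. Those differences, 2.38 and 2.67 (SE 0.42), were the largest of Ccl2 in any pair of the reported fit. The AA E17.5 difference was 1.89 without WT replicate 1 and 2.87 without WT replicate 2. At P1 Ccl2 read 7.09 and 6.14 in WT AA against 7.82 and 8.13 in KO AA, and 6.97 and 7.09 in WT DA against 7.05 and 7.48 in KO DA. The DA P1 arrays overlapped, and the AA P1 difference of 1.36 was 0.89 without WT replicate 2, an array of raised background.

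In Lox, Ccl2 read 5.38 and 5.80 in WT AA against 7.05 and 5.87 in KO AA at E17.5, and 4.90 and 4.58 in WT DA against 5.98 and 6.60 in KO DA. The P1 arrays read 8.07 and 7.38 in WT AA against 9.37 and 9.87 in KO AA, a difference of 2.10 ± 0.42. In DA P1 they read 7.79 and 7.84 in WT and 9.24 and 7.73 in KO, which overlapped. Before the shift was removed, the DA P1 difference was 0.67, and it was -0.09 without KO replicate 1. For Lox AA E17.5 the difference of 0.87 was 0.28 without KO replicate 1. AA P1 and DA E17.5 were the Lox pairs in which both KO arrays stood over 1 above both WT arrays.

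Eln pairs gave small Ccl2 differences of both signs, between -0.56 and 0.53. Values were 5.69 and 5.76 in WT AA against 5.61 and 5.74 in KO AA at E17.5, and 7.75 and 7.38 against 6.58 and 7.42 at P1. In DA they were 5.69 and 5.55 in WT against 5.88 and 6.42 in KO at E17.5, and 5.99 and 6.85 against 6.94 and 7.44 at P1. The last pair carried the raised background in WT, and its unshifted difference of 0.77 was 0.09 with array background as a covariate.

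Ccl7, which shares the receptor Ccr2 with Ccl2, exceeded the reference on 46 of 48 arrays. In Efemp2 its KO arrays lay above its WT arrays in all 4 pairs, with differences of 1.14, 1.08, 1.39 and 0.74 in AA E17.5, DA E17.5, AA P1 and DA P1 (SE 0.46). The arrays were 5.27 and 5.83 in WT against 6.50 and 6.88 in KO in AA E17.5, and 6.26 and 6.32 against 7.17 and 7.56 in DA E17.5. At P1 they were 7.0 and 5.77 against 7.45 and 8.10 in AA, and 7.35 and 6.44 against 7.51 and 7.76 in DA. The AA P1 value was 0.78 without WT replicate 2.

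Within Lox P1, KO AA was the highest group of Ccl7, at 9.07 and 8.97 against 7.35 and 6.63 in WT AA. The difference of that pair was 2.23 ± 0.46. In DA P1 the KO arrays stood far apart, at 9.17 and 7.44 against 7.19 and 7.36 in WT, and the unshifted difference of 1.03 was 0.16 without KO replicate 1. The E17.5 arrays were 4.43 and 5.45 in WT AA against 6.39 and 5.38 in KO AA, which overlapped, and 5.28 and 5.49 in WT DA against 6.63 and 6.04 in KO DA, which did not. The AA E17.5 difference of 0.95 was 0.44 without WT replicate 1. KO replicate 1 of Lox DA P1 was thus the high array for Ccl2, Ccl7 and Il6 alike. In Eln, differences of Ccl7 ran from -0.25 in AA P1 to 0.89 in DA E17.5. The Eln DA P1 value of 0.17 had an unshifted difference of 0.44, which was -0.73 with array background as a covariate.

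**Figure D2:**
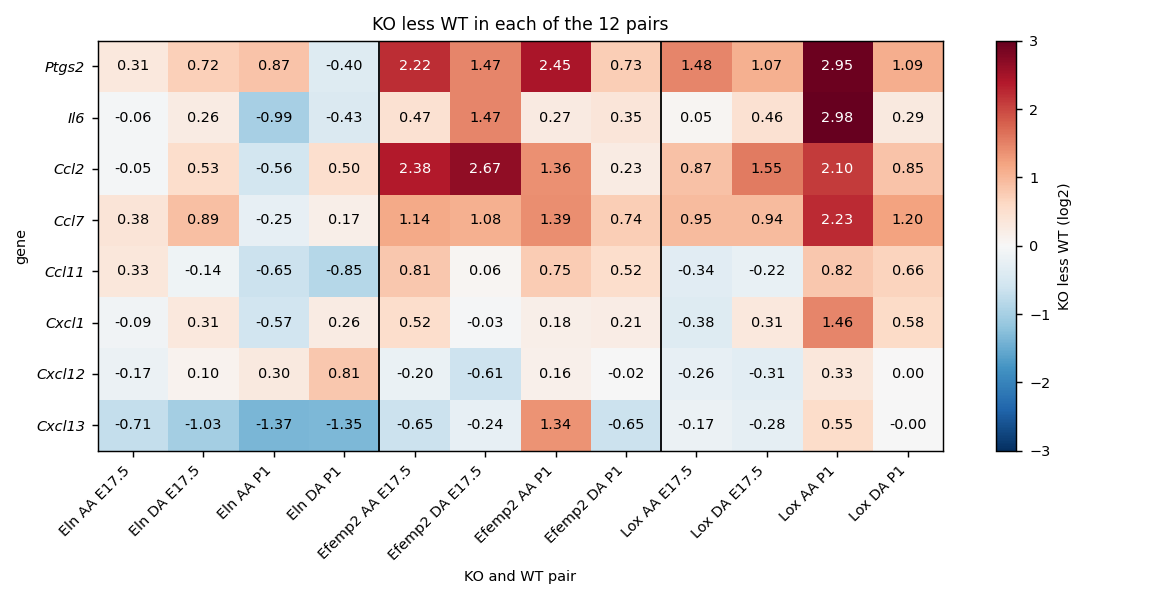
KO less WT (log2) of the 8 genes in each of the 12 pairs, as colour and number, with the pairs Eln DA P1, Lox AA P1 and Lox DA P1 less the median of all tested genes. The rows of Ptgs2, Ccl2 and Ccl7 are red over the Efemp2 and Lox columns, from 0.23 to 2.95, and the Cxcl13 row is blue over the 4 Eln columns, from -0.71 to -1.37.

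Ccl11, which encodes eotaxin-1, had smaller mean differences in Efemp2 and Lox than Ptgs2, Ccl2 and Ccl7. Its mean difference was -0.26 in Eln, 0.54 in Efemp2 and 0.14 in Lox (SE 0.18). The largest pair differences were 0.82 in Lox AA P1, where arrays read 7.14 and 6.75 in WT and 7.47 and 7.65 in KO, and -0.85 in Eln DA P1, with 7.90 and 7.76 against 7.19 and 7.31. Efemp2 AA E17.5 gave 0.81, from 5.36 and 5.54 in WT and 5.92 and 6.59 in KO. The sign of Ccl11 was not the same over the pairs of the Eln or Lox model. In Efemp2 every pair difference was positive, from 0.06 in DA E17.5 to 0.81 in AA E17.5. In Efemp2 AA P1 the difference of 0.75 was 1.37 without WT replicate 2 and 0.13 without WT replicate 1.

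Cxcl1 exceeded the reference on 19 of 48 arrays. In Lox AA P1 it read 5.41 and 5.08 in WT and 6.97 and 6.04 in KO, a difference of 1.46 ± 0.36. Before the shift was removed it was 1.26, and 0.79 without KO replicate 1. In Lox DA P1 the arrays read 5.18 and 4.95 in WT and 5.46 and 5.49 in KO, a difference of 0.58. Both KO arrays of either pair exceeded the reference. All other pair differences of Cxcl1 lay between -0.57 and 0.52, and its mean differences were 0.04, 0.22 and 0.40 in Eln, Efemp2 and Lox (SE 0.18).

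Cxcl12, the ligand of Cxcr4, had the highest median signal of the members, 9.93, with a range of 8.38 to 11.16. Its replicate arrays lay a median of 0.18 apart. The largest difference was 0.81 ± 0.20 in Eln DA P1, from 8.83 and 9.39 in WT, both of raised background, to 10.03 and 10.36 in KO. Its unshifted value of 1.08 was 0.67 with cyclic loess and 0.69 with the covariate for background. The Eln mean of 0.33 ± 0.10 was 0.08 without the 4 arrays of raised background. In Efemp2 DA E17.5 the order was opposite, with 10.66 and 10.49 in WT and 10.0 and 9.92 in KO, a difference of -0.61. The means of Efemp2 and Lox were -0.17 and -0.15.

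Cxcl13, the B cell attractant, was the member with the clearest difference in the Eln model. At E17.5 it read 7.25 and 7.72 in WT AA against 6.77 and 6.78 in KO AA, and 9.15 and 9.35 in WT DA against 8.20 and 8.23 in KO DA. The P1 arrays read 7.40 and 7.13 against 6.50 and 5.28 in AA, and 8.42 and 8.30 against 6.91 and 7.65 in DA. All KO arrays lay below all WT arrays of their pair in 4 of 4 pairs, as for 0.117% of tested genes. The KO AA P1 arrays were 1.22 apart, and the difference of -1.37 ± 0.31 was -0.76 without KO replicate 2.

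In Efemp2, Cxcl13 had a different sign at the 2 stages of the ascending aorta. It read 9.74 and 8.86 in WT AA against 8.48 and 8.81 in KO AA at E17.5, and 6.36 and 6.73 against 7.97 and 7.80 at P1. Efemp2 DA gave 10.43 and 10.37 against 10.17 and 10.16 at E17.5, and 9.11 and 9.55 against 8.89 and 8.47 at P1. Only AA P1 was higher in KO, by 1.34 ± 0.31, and the AA E17.5 value of -0.65 was -0.22 without WT replicate 1. In Lox the differences were -0.17, -0.28, 0.55 and 0.00 in AA E17.5, DA E17.5, AA P1 and DA P1.

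Pair by pair, the members were read beside the share of all tested genes whose KO arrays both lay above both WT arrays. In Eln, 0 members did so in AA E17.5 (15.2% of all genes), 4 in DA E17.5 (25.8%), 1 in AA P1 (21.4%) and 2 in DA P1 (38.7%). For Efemp2 the counts were 5 in AA E17.5 (14.9%), 4 in DA E17.5 (16.6%), 4 in AA P1 (27.6%) and 4 in DA P1 (26.4%). For Lox they were 2 in AA E17.5 (15.0%), 5 in DA E17.5 (25.6%), 8 in AA P1 (8.33%) and 4 in DA P1 (7.60%). Over all 4 pairs of Eln 1.28% of genes were higher without overlap, and 0 members. As the members were chosen on these contrasts, nothing is read from the counts.

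The difference between ascending and descending aorta was the second pattern by which the members were chosen. Ccl11 and Cxcl13 were higher in DA of wild-type aortas in all 6 combinations of model and stage, with means of 1.92 ± 0.15 and 1.63 ± 0.13. Without overlap in 6 of 6, they shared this with 0.398% of tested genes. Ccl11 at E17.5 read 5.65 and 5.91 in AA against 7.73 and 7.96 in DA of Eln WT, 5.36 and 5.54 against 7.99 and 8.61 in Efemp2 WT, and 6.40 and 5.97 against 8.10 and 8.13 in Lox WT. At P1 it read 6.02 and 6.88 against 7.90 and 7.76, 5.26 and 6.50 against 7.42 and 8.06, and 7.14 and 6.75 against 8.39 and 8.32 in the same order. No AA array reached a DA array of its own model and stage.

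The same order held in the knockouts. DA less AA of Ccl11 ran from 1.08 to 2.11 in the 6 KO combinations and that of Cxcl13 from 0.80 to 1.52 (SE 0.36 and 0.31). In WT the Cxcl13 difference was widest in Efemp2 P1, at 2.79, and 0.80 in the KO of that model and stage. The KO effect in DA less that in AA was there -1.99 ± 0.44.

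For Ptgs2 the lower signal was mostly in DA. Its wild-type mean was -0.40 ± 0.19, with negative values in 5 of the 6 combinations (-0.23 to -0.72) and 0.21 in Eln P1. Ptgs2 exceeded the receptor reference on 1 of 8 WT arrays in Eln, 0 of 8 in Efemp2 and 1 of 8 in Lox. Its wild-type location differences therefore mostly compared signals below that reference. The unshifted Eln P1 value of -0.03 was 0.94 without WT AA replicate 2 and -1.0 without replicate 1. In KO the DA less AA difference was negative in all 6 combinations, at -0.27 in Eln E17.5, -1.02 in Eln P1, -1.17 in Efemp2 E17.5, -1.95 in Efemp2 P1, -1.12 in Lox E17.5 and -2.33 in Lox P1 (SE 0.47). The KO effect on Ptgs2 in DA less that in AA was -1.83 ± 0.66 in Lox P1 and -1.72 ± 0.66 in Efemp2 P1. In Lox P1 this value was -2.66 ± 0.61 for Il6, -1.23 ± 0.60 for Ccl2, -1.0 ± 0.65 for Ccl7 and -0.85 ± 0.52 for Cxcl1. It was -0.13 ± 0.51 for Ccl11, -0.30 ± 0.28 for Cxcl12 and -0.53 ± 0.44 for Cxcl13, about 1 SE or less from 0. Of the 4 groups behind the Il6 value, KO AA alone lay above the receptor reference, so its size is bounded by background in the other 3.

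Cxcl1 was lower in DA in WT, with a mean of -0.55 ± 0.15, and ranged from -0.98 in Lox E17.5 to 0.00 in Efemp2 E17.5. It exceeded the receptor reference on 2 of 8 WT arrays in Eln, 2 of 8 in Efemp2 and 4 of 8 in Lox, so many of these signals were below it. For Ccl2, Ccl7, Il6 and Cxcl12 the wild-type means were -0.27 ± 0.17, 0.29 ± 0.19, -0.21 ± 0.18 and -0.06 ± 0.08, with both signs among the 6 combinations of Ccl2, Ccl7, Il6 and Cxcl12. Mast cell markers moved with the location as well. In the wild-type mean 7 of 7 were higher in DA, with a median of 0.84, and their mean level in Efemp2 E17.5 was 5.33 to 6.00 in AA and 6.68 to 7.14 in DA. For macrophage and neutrophil markers, 9 of 10 and 9 of 9 were higher in DA, with medians of 0.29 and 0.35. Brown fat markers were higher in 7 of 8, with a median of 0.43, and endothelial markers in 6 of 8, with 0.27, while mesothelial markers had a median of -0.36 with 2 of 6 higher. Eln P1 differed from the mean, with 2 of 10 macrophage markers (-0.45) and 2 of 8 brown fat markers (-0.54) higher in DA. There both DA arrays had a raised background and the median of all tested genes was -0.235, which is not removed from these marker values. In Eln P1, 1 of 8 endothelial (-0.555) and 0 of 6 mesothelial markers (-1.30) were higher, against 8 of 9 neutrophil (0.20) and 5 of 7 mast cell markers (0.27). The part of these cell types in the results for Ccl11 and Cxcl13 was not tested.

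**Figure D3:**
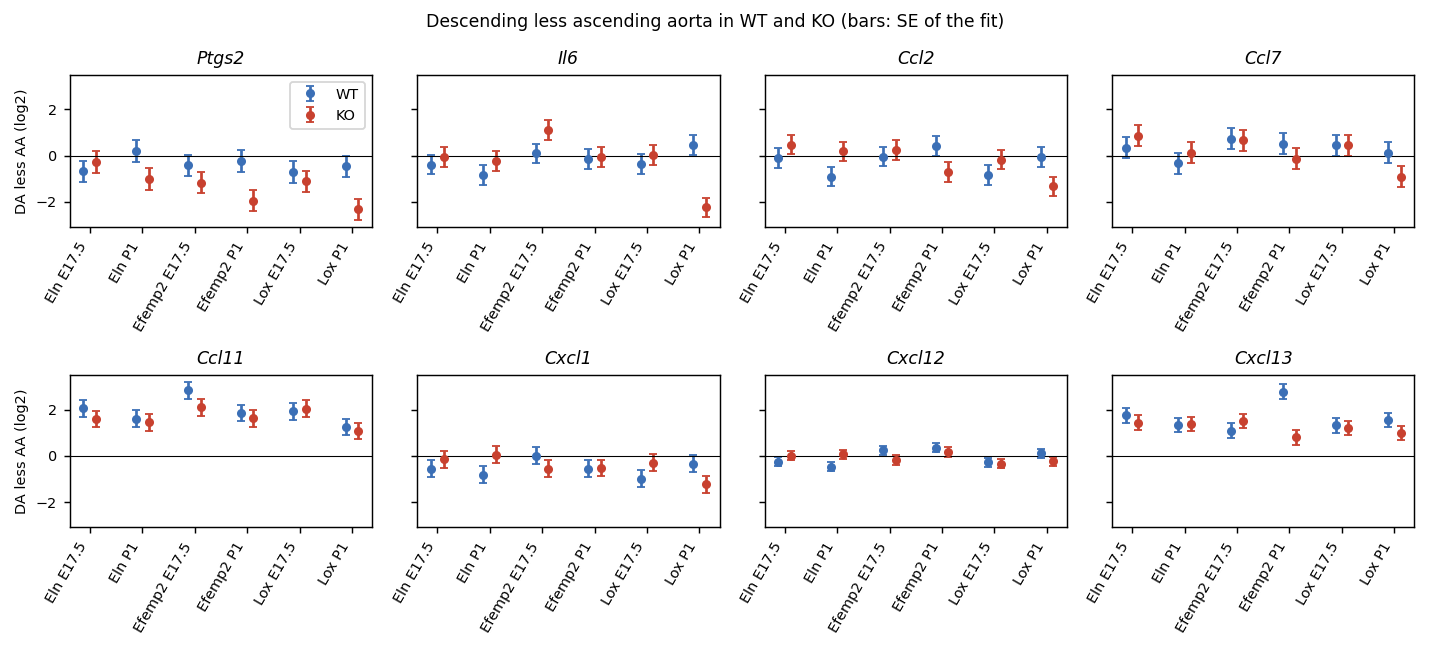
DA less AA (log2) in WT (blue) and KO (red) for each gene, by model and stage, with bars of 1 SE and with Eln P1 of WT and Lox P1 of both genotypes less the median of all tested genes. Ccl11 (1.08 to 2.85) and Cxcl13 (0.80 to 2.79) lie above 0 throughout, and the KO points of Ptgs2 lie below 0 in all 6 combinations.

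The pattern over the 12 pairs was also used to describe which genes resembled each member, by Pearson r of differences before any shift was removed. Ptgs2 and Ccl7 correlated at r = 0.775 across the 12 differences, and Il6 and Ccl7 at 0.853. Members, predicted genes and receptor families were skipped in the ranking. Among the other tested genes, Ifitm6 was nearest to Ptgs2 (r = 0.889) and to Ccl7 (0.854). Retnlg and Slfn1 followed for Ptgs2, and Pgam1 and Lst1 for Ccl7. Ccl2 was most like Gipc2 (0.933), Fut4 (0.863) and Ccl12 (0.860), a chemokine of its own family. The 3 nearest to Il6 were Noct, Pdcd1 and Ptx3 (0.775 to 0.817), and those nearest to Ccl11 were Rnd1, Snord17 and S100a9 (0.879 to 0.931). Cxcl12 was nearest to Mfap2, Celsr1 and Tenm3 (0.923 to 0.940), Cxcl13 to Ivns1abp, Smco4 and Maf (0.884 to 0.928), and Cxcl1 to Tmem97, Znhit1 and Ppp1r14a (0.818 to 0.838). These values describe 12 points, 4 from each model, and they were the highest among those of the 15337 tested genes that were not skipped.

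Other genes of the pathways around the members were tested across the whole table. Of 131 genes in 9 lists, 122 had a probe set and 106 passed the filter on low signal. In Efemp2, 19 of these rose and 2 fell (limma, adjusted p below 0.05), while 3.14% of all tested genes were higher and 0.665% lower. For Lox, 2 rose and 0 fell, beside 0.561% and 1.00% of all genes. Eln had 1 that rose and 0 that fell, beside 2.74% and 0.541%. Whether the models differ in these counts was not tested.

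Receptors of the IL-6 family were among the changes of Efemp2. Osmr, the oncostatin M receptor, rose by 1.11 ± 0.14 (limma adjusted p = 5.73e-06, higher in 4 of 4 pairs). At E17.5 its 4 WT arrays lay between 6.78 and 7.03 and its 4 KO arrays between 7.36 and 7.83, and at P1 they lay between 5.81 and 6.91 and between 7.26 and 7.89. The groups did not overlap at either stage. Il6ra, the ligand-binding receptor chain for IL-6, rose by 0.56 ± 0.12 (limma adjusted p = 0.00526, 3 of 4 pairs), and the call was lost where the model held no arrays but those of Efemp2. Both stood in a list of 9 tested genes with a median of 0.18, against 0.04 for all genes. Of 10 STAT3-related genes 4 rose, with a list median of 0.36. They were Junb (0.70), Pim1 (0.57), Jak2 (0.47) and Stat3 (0.41), with limma adjusted p from 0.0110 to 0.0454, and these calls were lost in 3, 4, 16 and 12 of 24 alternative settings.

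Other chemokines rose with Ccl2 and Ccl7 in the fibulin-4 model, 4 of 22 tested. Ccl6 rose by 1.33 ± 0.21 (limma adjusted p = 1.14e-04), Ccl8 by 1.08 ± 0.17 (1.02e-04) and Ccl9 by 0.99 ± 0.15 (5.19e-05), each higher in 4 of 4 pairs. The 4 WT arrays of Ccl6 lay between 4.44 and 5.12 at E17.5 and between 5.79 and 6.26 at P1, and its KO arrays between 5.81 and 7.63 and between 6.80 and 7.40. No KO array of these 3 genes overlapped a WT array of its pair. Ccl8 stayed at 2.69 to 4.03 at E17.5, below the receptor reference. Pf4, a platelet chemokine, rose by 0.53 (adjusted p = 0.0383 in limma), a call lost in 14 of 24 settings. The list median was 0.27, against 0.04 for all genes.

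Among 16 chemokine receptors, Ccr2, the receptor of Ccl2 and Ccl7, rose by 0.90 ± 0.17 (limma adjusted p = 0.00134), and Cxcr2, the receptor of Cxcl1, by 0.84 ± 0.15 (6.63e-04). Each was higher in 3 of 4 pairs. The Ccr2 arrays at E17.5 lay between 4.73 and 5.23 in WT and between 5.74 and 8.17 in KO. Over AA and DA, the P1 ranges overlapped, at 4.41 to 5.38 in WT and 4.47 to 5.40 in KO. Within pairs, both KO arrays of Ccr2 lay above both WT arrays in 3 of 4. Ackr3, a scavenger of Cxcl12, fell by 0.32 in log2 signal (limma adjusted p = 0.0491), which was lost in 17 of 24 settings. The list median was 0.01.

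Leukocyte adhesion molecules had 4 rises and 1 fall among 7 tested genes. Selplg, the selectin ligand on leukocytes, rose by 0.82 ± 0.13 (limma adjusted p = 1.71e-04), E-selectin (Sele) by 0.66 ± 0.13 (0.00147) and Vcam1, an endothelial adhesion molecule, by 0.55 ± 0.10 (0.00110), each higher in 4 of 4 pairs. Sele stayed between 3.79 and 4.79 at E17.5, near the receptor reference. The 4 Vcam1 arrays of WT lay between 7.03 and 7.29 at E17.5 and between 5.64 and 6.17 at P1, and those of KO between 7.33 and 7.84 and between 6.53 and 6.84. Madcam1 fell by 0.42 (0.0341), and Icam1, which lies outside the rule for naming genes, rose by 0.34 (0.0453). These last calls of limma were lost in 12 and 18 of 24 settings.

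In the NF-kB list Nfkb2 rose by 0.46 (limma adjusted p = 0.0414), 1 of 13, lost in 16 of 24 settings. The list of IL-1 and TNF genes had 2 rises among 12, Il1b by 0.84 ± 0.24 (0.0391) and Tnfrsf1b by 0.49 (0.0263), which limma lost in 11 and 10 of 24 settings. For Il1b the KO arrays lay above WT in 3 pairs and below WT in 1. All Efemp2 WT arrays of Il1b lay below the receptor reference.

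Prostanoid genes other than Ptgs2 gave no call in any of the 3 models with limma, among 12 genes of synthesis and breakdown and 5 receptors. The abundant synthases Ptges3 and Ptgis, which make prostaglandin E and prostacyclin, differed by 0.14 ± 0.13 and 0.04 ± 0.14 in Efemp2 and by -0.12 and -0.07 in Lox. Ptges, the inducible prostaglandin E synthase, differed by -0.20 ± 0.13 and -0.09 ± 0.13. Ptges was named after its values were seen. A p that misses the threshold does not show that these genes did not differ.

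In Lox the 2 rises were Cx3cr1, the fractalkine receptor (0.49 ± 0.13, limma adjusted p = 0.0379), and Sele (0.52 ± 0.13, 0.0279), each higher in 4 of 4 pairs. At P1 the Cx3cr1 arrays lay between 7.62 and 8.05 in WT and between 8.20 and 8.71 in KO. Over AA and DA, the E17.5 ranges overlapped, at 6.43 to 7.30 in WT and 6.58 to 7.35 in KO. Within pairs, both KO arrays of Cx3cr1 lay above both WT arrays in 3 of 4. The calls were lost in 13 and 9 of 24 settings. In Eln the single rise was Ccl17, by 0.89 ± 0.22 (limma adjusted p = 0.0149), from 2.72 to 4.10 in the WT arrays of P1 to 4.23 to 5.67 in KO. At E17.5 the ranges over AA and DA overlapped, at 2.89 to 3.27 in WT and 2.99 to 3.77 in KO. Within pairs, both KO arrays of Ccl17 lay above both WT arrays in 3 of 4. All WT arrays and the E17.5 KO arrays of Ccl17 lay below the receptor reference. Of 24 settings 6 lost that call, including the covariate for array background and the omission of the 4 arrays with raised background.

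**Figure D4:**
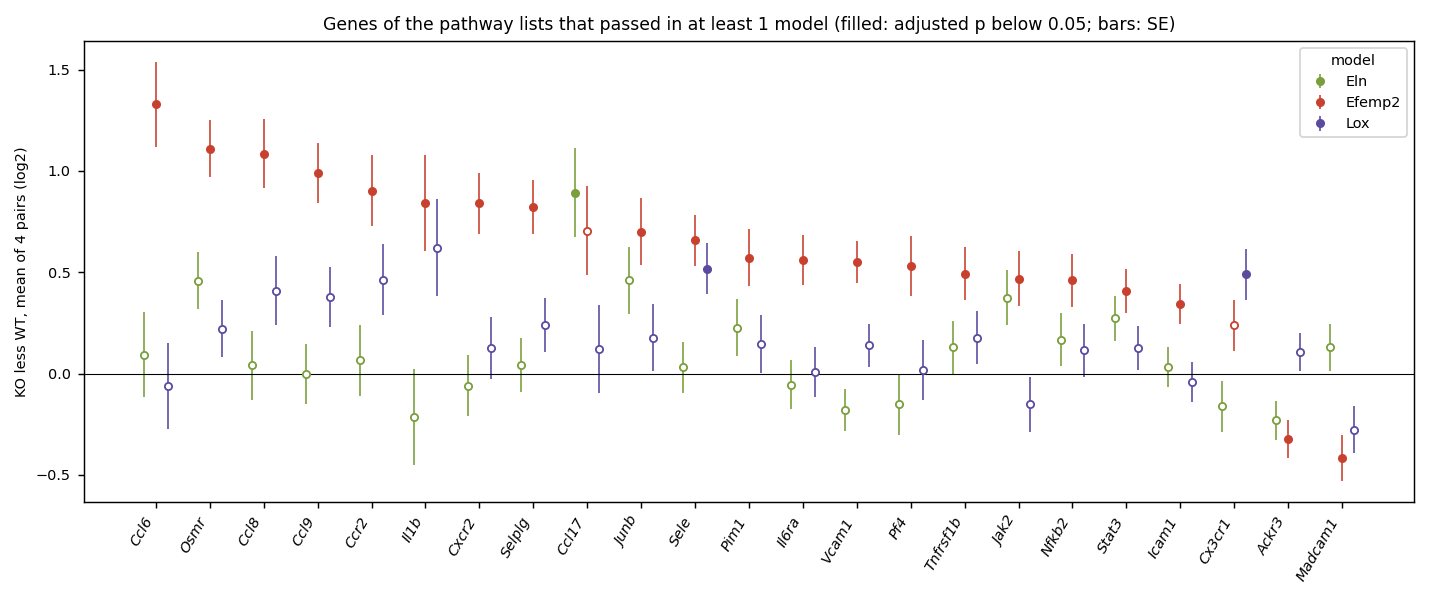
KO less WT (log2, mean of 4 pairs) of the pathway genes that passed in at least 1 model, for Eln (green), Efemp2 (red) and Lox (violet), with bars of 1 SE and filled points at adjusted p below 0.05. The Efemp2 points fall from 1.33 for Ccl6 to -0.42 for Madcam1, and those of Eln and Lox lie nearer to 0 for most of the Efemp2 calls.

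Markers of several cell types differed between the genotypes in the same models, in both directions. In Efemp2, 10 of 10 macrophage and monocyte markers were higher in KO with a median of 0.66, and 6 of them passed the test. Their mean level was 5.78 to 6.81 on the WT arrays and 6.96 to 7.48 on the KO arrays at E17.5, and 6.11 to 6.65 and 6.82 to 7.29 at P1. For neutrophil markers 7 of 9 were higher, with a median of 0.58. Their mean levels were 4.94 to 5.72 in WT and 5.81 to 6.08 in KO at E17.5. In AA P1 they were 5.38 to 5.92 in WT and 6.28 to 6.46 in KO, without overlap. In DA P1 they overlapped, at 5.504 to 5.813 in WT and 5.585 to 5.976 in KO. Of these 9, 4 rose and 1 fell. The other direction was seen for mast cell markers, with 0 of 7 higher and a median of -0.33, for endothelial markers, with 1 of 8 higher, a median of -0.37 and 2 calls, and for brown fat markers, with 1 of 8 higher and a median of -0.41. Between 6 and 9 of the 10 macrophage markers exceeded the receptor reference on the Efemp2 WT arrays and 9 or 10 on the KO arrays, so macrophage markers were present in both genotypes.

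The Lox KO arrays had 9 of 10 macrophage markers higher, with a median of 0.40 and 1 call, and mean levels of 7.21 to 7.69 in WT and 7.64 to 7.97 in KO at P1. In Lox AA P1 the neutrophil markers were higher in 8 of 9 with a median of 0.55, where all genes had a median of -0.20. In DA P1 they were also higher in 8 of 9, at 0.42, but at E17.5 they were higher in 5 of 9 in AA (0.03) and 2 of 9 in DA (-0.16), and over the 4 pairs the median was 0.14 with 0 calls. Mast cell, brown fat and endothelial markers of Lox had medians of -0.41, -0.62 and -0.26, with 0 of 7, 0 of 8 and 1 of 8 higher. In Eln AA P1, where Il6, Ccl2, Ccl7, Ccl11, Cxcl1 and Cxcl13 had negative differences, 1 of 10 macrophage markers was higher, with a median of -0.71. The median of 8 brown fat markers in that pair was -1.60, with 0 of 8 higher, and that of 7 mast cell markers -0.94, with 0 of 7 higher. The 2 WT arrays there were far apart in the mean level of the brown fat markers, at 6.71 and 8.64. The KO arrays lay at 5.924 to 6.195, so the size of that median depends on the WT pool. Over the 4 Eln pairs, 0 of 8 brown fat markers were higher and 3 fell, with a median of -0.49. Of 8 fibroblast markers 1 rose and 3 fell. For 7 mast cell and 7 lymphocyte markers, 1 and 3 were higher, with medians of -0.28 and -0.11 and 0 calls. The part of these cell types in the results for the members was not tested.

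In wild-type aortas 7 pathway genes were higher and 8 lower in DA than in AA (limma, adjusted p below 0.05), beside 4.64% and 3.96% of all tested genes. The prostanoid list had 2 lower genes. Hpgd, which breaks down prostaglandins, differed by -1.03 ± 0.14 (limma adjusted p = 2.74e-06), with medians of 7.09 over 12 AA arrays and 6.13 over 12 DA arrays. Ptgis, the prostacyclin synthase, differed by -0.57 ± 0.11 (limma adjusted p = 6.53e-04), with medians of 9.69 and 8.86. Both had this sign in 6 of 6 combinations. Ackr3 was also lower, at -0.51 ± 0.08 (limma adjusted p = 2.35e-05, 6 of 6), and so was Cxcl15, at -0.63 (0.00715, 4 of 6).

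Il33, an alarmin of the IL-1 family, was higher in DA by 0.82 ± 0.13 (limma adjusted p = 4.39e-05), with medians of 5.90 in AA and 6.78 in DA. Il18 (0.48), Il1r1 (0.43), Cx3cr1 (0.52) and Pf4 (0.49) were higher as well, with limma adjusted p between 8.39e-04 and 0.00951. The location calls of Hpgd, Ptgis, Ackr3, Cxcl15, Il33, Il18, Il1r1, Cx3cr1 and Pf4 were lost in 0 of 32 alternative settings. Cxcl9 (0.46) and Cntfr (0.39) were higher, and Socs1 (-0.51), Nfkb2 (-0.37), Rela (-0.35) and Ptger4 (-0.30) lower, with calls that limma lost in 2, 8, 5, 11, 8 and 23 settings. None of 7 adhesion molecules passed between the locations.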

How the data were processed

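The 48 arrays carry total RNA from mouse aorta. Deposited values are log2 signals per probe set, which per the submitters' processing notes the authors obtained by RMA (Affymetrix Expression Console). Software versions and genome build are not given in the sources used here. Of 41345 probe sets, 23521 carried 1 symbol, 1814 several and 16010 none, and the highest-mean single-symbol probe set stood for each gene. A gene was tested where a group mean reached 4.94, the median of single-symbol values, which left 15337. One linear model with 24 group means (24 residual degrees of freedom) was fitted with limma 3.58.1 in R 4.3.3, and p-values were adjusted by Benjamini-Hochberg over all tested genes, at a threshold of 0.05. The script was tested on simulated data. The members and the gene lists were chosen with earlier results of these data known. Text names all members, up to 4 called genes per pathway list, at most 2 abundant genes of a list without calls, and the 3 genes most alike to each member, skipping predicted genes and receptor families; Ptges and Icam1 were named after their values were seen. Whether all arrays were normalized together was not established. Alternatives were no filter, cyclic loess, only the arrays of the comparison, trend and robust variances, replicate blocks (statmod 1.5.0), array background as a covariate, 4 arrays left out, and each array left out in turn. The number of arrays limits the precision.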

Additional observations from a re-analysis of the deposited data

Results flagged for a closer look

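Each result below is listed because both arrays of 1 side lay above both of the other in 1 group and below them in another. The sides were KO and WT, or DA and AA in WT. None of these differences was tested, and all values are log2 differences before any shift is removed. Such separation was frequent among all tested genes. In the 12 pairs it held upward for 7.60% (Lox DA P1) to 38.7% (Eln DA P1). Downward it held for 12% (Efemp2 DA P1) to 54.6% (Lox AA P1). The share of genes with opposite separations was not counted, so nothing is read from the length of the list.

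Cxcl13 accounts for 4 of the listed results. Its KO less WT difference in AA P1 was -1.37 in Eln against 1.34 in Efemp2, and -1.37 in Eln against 0.35 in Lox. Within Efemp2 it was -0.65 in AA E17.5 against 1.34 in AA P1, and 1.34 in AA P1 against -0.65 in DA P1.

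Ptgs2 differed by 0.72 in Eln DA E17.5 against -0.13 in Eln DA P1, and the Eln DA P1 value of -0.13 also stood against 0.73 in Efemp2 DA P1 and 0.92 in Lox DA P1. Both WT arrays of Eln DA P1 had a raised background. Il6 in AA P1 was -0.99 in Eln and 2.78 in Lox.

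For Ccl11 the AA P1 differences were -0.65 in Eln and 0.62 in Lox. In DA P1 they were -0.58 in Eln against 0.52 in Efemp2, and -0.58 in Eln against 0.48 in Lox. Cxcl12 in Lox AA was -0.26 at E17.5 and 0.13 at P1.

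Between the locations in WT, DA less AA of Il6 was -1.07 in Eln P1 and 0.61 in Lox P1, all on arrays below the receptor reference. For Cxcl12 it was -0.71 in Eln P1 against 0.27 in Lox P1, and -0.28 in Lox E17.5 against 0.27 in Lox P1. In Lox P1, 44.5% of all tested genes were higher in DA without overlap, and the median of all was 0.155. In Eln P1, 40.5% were lower in DA, with a median of -0.235.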

How the results depend on the processing

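For the 8 members, 2544 alternative values of 176 differences were computed. Of these 2431 moved by less than the spread between replicates and 113 by more, 25 of them outside the fits that left out 1 array. The sign changed in 81, of which 4 had a main difference beyond 0.5. Each member had 1 probe set, so the mean of all probe sets gave the same values. The cause of the changes below was not tested.

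Counts of genes called by limma moved by over 1.5 times in these settings. With cyclic loess, Eln gave 243 higher (421 in the reported fit) and 140 lower (83), Efemp2 208 lower (102), and Lox 137 higher (86) and 72 lower (154), with 1 pathway gene lower in Eln (0) and 1 higher in Lox (2). With array background as a covariate, Eln gave 136 higher, Efemp2 241 higher (482) and Lox 268 lower, and the pathway genes were 0 higher in Eln (1) and 0 lower in Efemp2 (2). Without the 4 arrays of raised background, Eln gave 145 higher, Efemp2 267 lower, Lox 320 lower and wild-type location 372 lower (607), with pathway genes 0 higher in Eln, 1 lower in Efemp2 and 2 lower in Lox (0). With only the arrays of the comparison, Efemp2 gave 177 higher and 19 lower, Lox 186 higher and 581 lower, and location 360 lower. Pathway genes were then 9 higher (19) and 0 lower in Efemp2, 4 higher and 3 lower in Lox, and 5 lower in location (8). Without a filter, 1 pathway gene was lower in Efemp2 and 1 higher in Lox, and trend and robust variances left 1 lower in Efemp2.

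Leaving out each array in turn gave 272 to 697 higher and 52 to 175 lower genes in Eln, 317 to 722 and 49 to 176 in Efemp2, 43 to 110 and 72 to 191 in Lox, and 551 to 1060 and 431 to 1163 for location. Pathway genes ran from 0 to 2 higher and 0 to 1 lower in Eln, 12 to 21 and 0 to 2 in Efemp2, 0 to 2 and 0 to 1 in Lox, and 6 to 10 and 4 to 10 for location. The 12 came without Efemp2 KO AA E17.5 replicate 1.

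The replicate numbers share only a number. Same-numbered KO and WT arrays correlated in their deviations at -0.233 to 0.203, over 0.1 in 3 of 12, and DA and AA arrays at -0.252 to 0.356. With model, stage and replicate number as a fixed replicate block, Eln gave 443 higher and 89 lower, Efemp2 508 and 110, Lox 89 and 155, and location 761 and 682. As a random block the correlation was 0.025, and 1 pathway gene was lower in Lox.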
